A study of Homo sapiens with 6 samples.

Results

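CNTN3, CDHR1, SCG5, SLC22A17, APBA1 and PLBD1 are 6 autosomal genes whose RNA was present in wild type (WT) ARPE-19 cells and low or nearly undetected in the POLDIP2 KO line. They are 6 of 37882 genes in the deposited values, and they were chosen by their normalised counts, which were lower in POLDIP2 KO than in WT, so the difference between the lines is given for them as a description and without a test. ARPE-19 is a human cell line of retinal pigment epithelium (RPE) origin, and WT is its unmodified parental form. POLDIP2 KO was obtained by lentiviral delivery of SpCas9 and a POLDIP2 sgRNA, puromycin selection and expansion, without a cloning step in the methods. Both were grown under regular maintenance and sampled on day 3, with 3 biological replicate libraries per line. A change that arose in this 1 selected line and an effect of losing POLDIP2 cannot be told apart with these samples.

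Normalised counts are reads per gene divided by a size factor for each library, and the reads behind them were recovered by division. The libraries held 31532797 to 45795509 recovered reads. A gene with 3 reads or fewer in a library was treated as being at the floor there, which is 2.44 to 3.69 normalised counts. The targeted gene followed the labels, with POLDIP2 in KO at 25.5% of its WT mean and no overlap between libraries. Epithelial keratins and the RPE regulators MITF and OTX2 were expressed in both lines. Other RPE markers were mixed. RPE65, RGR and TTR, which mark mature RPE, were at 0 in every library, and TYR and DCT had at most 3 and 4 reads. BEST1, RDH5, PMEL, LRAT and RLBP1 were expressed, with WT means of 333, 265, 84.7, 70.1 and 43.3. In the same order, their POLDIP2 KO means were 442, 227, 65.8, 25.1 and 26.5.

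The 6 genes belong to different cell systems. CNTN3 encodes a contactin, an immunoglobulin-family adhesion protein of neurons held in the membrane by a lipid anchor, and CDHR1 encodes the photoreceptor cadherin found at the base of outer segments, where inherited defects cause retinal dystrophy. SCG5 (also called 7B2) is a chaperone of the prohormone convertase PCSK2 in the secretory pathway of neuroendocrine cells, and APBA1 (X11 or MINT1) is an adaptor that binds the amyloid precursor protein and forms a synaptic complex with CASK and LIN7 proteins. SLC22A17 encodes a cell-surface receptor for lipocalin 2, which carries iron-loaded siderophores, and PLBD1 encodes a lysosomal phospholipase B-like protein known from neutrophils.

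The genes lie on 6 different chromosomes of GRCh38. CNTN3 is on the minus strand of chromosome 3 from 74262568 to 74614659, and CDHR1 on the plus strand of chromosome 10 from 84194537 to 84219621. SCG5 occupies the plus strand of chromosome 15 from 32641676 to 32697098, and SLC22A17 the minus strand of chromosome 14 from 23346314 to 23352912. APBA1 spans 69427532 to 69672371 on the minus strand of chromosome 9, and PLBD1 spans 14503661 to 14567883 on the minus strand of chromosome 12.

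Promoter sequences were compared because the genes share low RNA in the same line while lying far apart. RefSeq promoters (GRCh38.p14) were found for 5 of the 6 genes, with 6 start sites in all. CG dinucleotides, which read the same on both strands, were counted in the 250 bases before each start and compared with 35116 promoters, which had a median of 11 CG (quartiles 3 and 23) and of which 93.9% held at least 1. The promoter of CNTN3 was among the richest, with 38 CG, a count reached by 3.28% of all promoters. CDHR1 and PLBD1 had 13 CG each, SCG5 had 8, and the starts of SLC22A17 had 7 and 16, all between the quartiles. The 3 promoters of the genes with the lowest share of RNA left are shown from 5′ to 3′ on the coding strand with every CG in capitals, at chr3:74614660-74614909 (minus strand), chr10:84194287-84194536 (plus) and chr15:32641460-32641709 (plus):

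CNTN3: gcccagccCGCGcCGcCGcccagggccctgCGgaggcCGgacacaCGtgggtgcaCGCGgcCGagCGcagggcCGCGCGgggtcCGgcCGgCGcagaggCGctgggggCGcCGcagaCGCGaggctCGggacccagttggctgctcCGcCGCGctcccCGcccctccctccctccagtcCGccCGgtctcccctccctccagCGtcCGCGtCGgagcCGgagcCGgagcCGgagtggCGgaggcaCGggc

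CDHR1: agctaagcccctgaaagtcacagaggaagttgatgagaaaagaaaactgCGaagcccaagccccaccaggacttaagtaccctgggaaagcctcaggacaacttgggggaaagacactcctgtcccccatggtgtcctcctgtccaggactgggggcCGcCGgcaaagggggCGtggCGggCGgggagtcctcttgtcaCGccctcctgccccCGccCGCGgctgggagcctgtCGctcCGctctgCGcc

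SCG5: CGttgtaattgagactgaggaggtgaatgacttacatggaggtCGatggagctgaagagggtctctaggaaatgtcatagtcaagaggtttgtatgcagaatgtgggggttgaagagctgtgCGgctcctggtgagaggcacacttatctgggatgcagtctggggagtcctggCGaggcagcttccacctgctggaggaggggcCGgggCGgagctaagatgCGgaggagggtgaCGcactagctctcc

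The capitals run through the whole CNTN3 window, cluster towards the start in CDHR1 and are sparse in SCG5. On either strand, TATAAA (in 10.7% of all promoters) was in none of the 6 member windows and CACGTG (6.34%) was in the CNTN3 window only. GGGCGG (42.6%) was in the windows of CNTN3, CDHR1, SCG5 and the start of SLC22A17 with 16 CG, while CCAAT (32.0%) was in the other SLC22A17 window only. A high CG count was therefore not a shared property of the members.

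For each member, every POLDIP2 KO library lay below every WT library, as in 5.43% of the 14672 genes tested (a further 5.45% had every POLDIP2 KO library above every WT library). This count follows from how the members were chosen.

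In WT replicates 1, 2 and 3, CNTN3 reached 71.8, 167 and 44.9 normalised counts, while the POLDIP2 KO libraries in the same order gave 1.23, 0 and 0. All WT libraries were far above the floor and all POLDIP2 KO libraries were under it, with 1 read in the whole line against 285 in WT. The means were 94.4 ± 63.9 and 0.41 ± 0.71 (SD, n = 3 libraries each). POLDIP2 KO therefore held 0.347% of the WT level by pooled reads, with an exact 95% interval from 0.00875% to 1.95% that covers counting error only, as do all intervals on pooled reads here. The share of means was 0.434%. Leaving out POLDIP2 KO replicate 1 made it 0%, and leaving out WT replicate 2 made it 0.703%.

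CDHR1 had 54.8, 37.1 and 10.4 normalised counts in WT against 0, 0.814 and 0 in POLDIP2 KO (replicates 1, 2 and 3). Again 1 read was found in the whole POLDIP2 KO line, against 105 in WT, and WT replicate 3 stood lowest. The pooled level was 0.941% of WT (95% interval 0.0236% to 5.36%), with means of 34.1 ± 22.3 and 0.271 ± 0.470 (SD, n = 3 each). By means the share left was 0.795%, and it was 0% without POLDIP2 KO replicate 2 and 1.19% without replicate 1 or 3 of that line.

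SCG5 summed to 143, 152 and 48.0 normalised counts in WT replicates 1, 2 and 3 and to 7.38, 0 and 1.99 in POLDIP2 KO. WT replicate 3 was again the lowest of its line, and POLDIP2 KO replicate 1 was the only library of its line above the floor, with 6 reads. The means were 114 ± 57.4 and 3.12 ± 3.82 (SD, n = 3 each), and the pooled level was 2.27% of WT (95% interval 0.973% to 4.53%). The share of means was 2.74%, and it was 0.871% without POLDIP2 KO replicate 1 and 4.11% without POLDIP2 KO replicate 2.

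The SCG5 value is the sum of 2 rows with different Ensembl identifiers. ENSG00000277614, an identifier not held by GENCODE release 44, took 88.9% of the WT mean and had 310 reads in WT and 0 in all POLDIP2 KO libraries, which allows a level of up to 1.18% of WT (upper bound of the exact 95% interval on pooled reads). ENSG00000166922, the gene on chromosome 15, had 10.4, 16.1 and 11.5 normalised counts in WT and held all 8 POLDIP2 KO reads. Its own level in POLDIP2 KO was 20.8% of WT by pooled reads (95% interval 8.39% to 45.3%), so the share left differed strongly between the rows. Reads that match both rows can be divided between them by the quantification, which these intervals do not cover. The levels of single rows, the 0 included, are therefore less certain than that of the sum. A readthrough transcript unit, ARHGAP11A-SCG5, covers the same strand and has no row under its own identifier, and how its reads were assigned is not given in the sources used here.

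SLC22A17 had 58.6, 9.03 and 6.26 normalised counts in WT against 3.69, 0.814 and 0.993 in POLDIP2 KO. Only WT replicate 1 was high, and every POLDIP2 KO library was at the floor with 3, 1 and 1 reads. The means were 24.6 ± 29.4 and 1.83 ± 1.61 (SD, n = 3 each), and the level was 7.44% of WT by means. Without WT replicate 1 the WT mean was 7.65 and the level 24.0%, and without POLDIP2 KO replicate 1 it was 3.67%. The lowest WT library had 6 reads and the highest POLDIP2 KO library 3, so the size of the difference rests mainly on WT replicate 1.

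APBA1 was not silent in POLDIP2 KO. It summed to 199, 197 and 215 normalised counts in WT and to 33.2, 66.8 and 61.6 in POLDIP2 KO, with means of 204 ± 9.96 and 53.8 ± 18.1 (SD, n = 3 each). WT libraries were tightly grouped, and POLDIP2 KO replicate 1 was the lowest of its line. By pooled reads 27.6% of the WT level was left (95% interval 23.1% to 32.7%).

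Both rows of APBA1 were lower in POLDIP2 KO, to unequal degrees. ENSG00000107282, on chromosome 9, had a mean of 57.0 ± 3.27 in WT against 24.6 ± 8.74 in POLDIP2 KO (SD, n = 3 each), a pooled level of 44.2% (95% interval 33.4% to 58.2%). ENSG00000276497, which GENCODE release 44 does not hold, had 147 ± 13.2 and 29.2 ± 18.9, a pooled level of 21.1% (16.7% to 26.4%). Within POLDIP2 KO the second row ranged from 8.61 in replicate 1 to 45.7 in replicate 3. Reads that match both rows can be divided between them by the quantification, so the sum is the steadier quantity.

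PLBD1 likewise kept part of its RNA. Its normalised counts were 241, 195 and 217 in WT and 44.3, 53.7 and 62.6 in POLDIP2 KO, with means of 218 ± 23.1 and 53.5 ± 9.14 (SD, n = 3 each). The ranges of the lines were narrow and well apart, with a 3.11-fold step between the nearest libraries. By pooled reads 24.8% of the WT level was left (95% interval 20.8% to 29.5%).

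**Figure D1:**
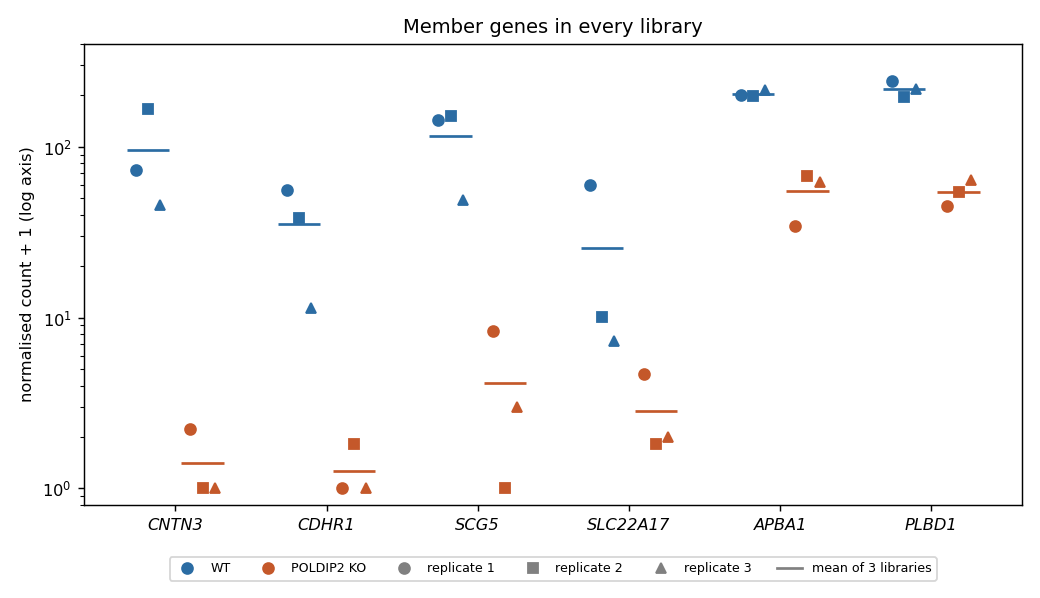
Normalised count plus 1 on a log axis for the 6 genes in each of the 3 WT (blue) and 3 POLDIP2 KO (orange) libraries, with marker shape for the replicate number and a line at the mean of each line. CNTN3 and CDHR1 sit at or near 0 in POLDIP2 KO, SLC22A17 is high only in WT replicate 1, and APBA1 and PLBD1 keep 26.4% and 24.6% of their WT means.

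**Figure D2:**
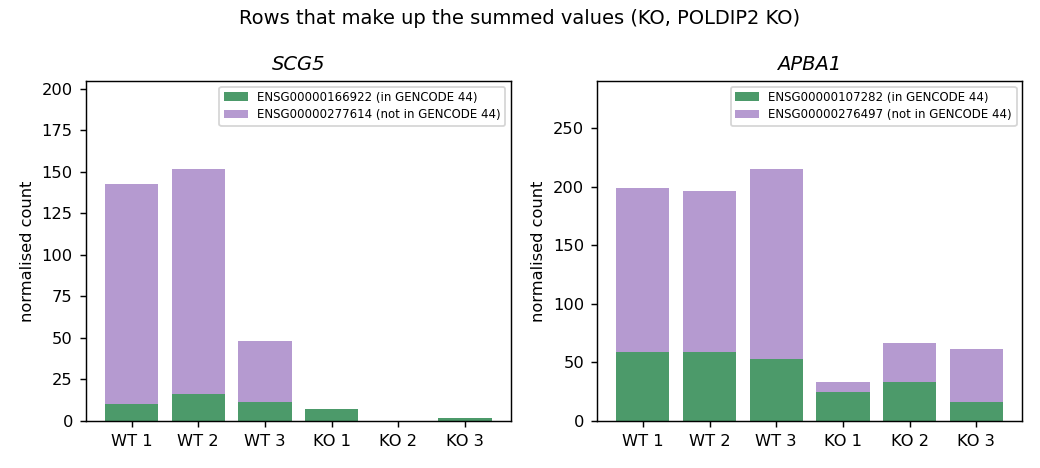
Stacked bars of the normalised count of each of the 2 rows summed for SCG5 (left) and APBA1 (right) in the 6 libraries. The SCG5 row that is not in GENCODE release 44 makes up most of the WT bars and is at 0 in POLDIP2 KO, whereas both APBA1 rows are present in every library.

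Ordered by the share of the WT mean left in POLDIP2 KO, the genes were CNTN3 (0.434%), CDHR1 (0.795%), SCG5 (2.74%), SLC22A17 (7.44%), PLBD1 (24.6%) and APBA1 (26.4%). The single POLDIP2 KO libraries ranged from 0% to 1.30% for CNTN3, 0% to 2.39% for CDHR1, 0% to 6.47% for SCG5 and 3.31% to 15.0% for SLC22A17. They ranged from 20.4% to 28.8% for PLBD1 and from 16.3% to 32.8% for APBA1. Neighbours in this order overlapped except SLC22A17 and PLBD1, and without WT replicate 1 the shares of SLC22A17 and PLBD1 were close, at 24.0% and 26.0%. The word silent therefore described CNTN3 and CDHR1, held for SCG5 in POLDIP2 KO replicates 2 and 3 at the floor, rested on little WT expression for SLC22A17, and was contradicted by the levels of APBA1 and PLBD1.

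On the log2(normalised count + 1) scale, the difference of POLDIP2 KO from WT was -5.98 (standard error, SE, 0.70) for CNTN3, -5.13 (0.87) for SCG5, -4.57 (0.83) for CDHR1, -2.67 (0.98) for SLC22A17, -2.01 (0.23) for PLBD1 and -1.96 (0.31) for APBA1. The median of the 6 was -3.62, beside a median of -0.00029 over all genes tested. The values for CNTN3 and CDHR1 are set largely by the added count, and with 5 added they were -4.01 and -2.69. Those for SCG5 and SLC22A17 also depended on it, at -3.82 and -1.68 with 5 added. APBA1 and PLBD1 changed little, to -1.88 and -1.93. With thresholds of 0.05 on the adjusted p and 1.5 on the fold change, limma called 12 genes lower and 12 higher in POLDIP2 KO (0.0818% of those tested in each direction). Calls of the members by this or another tool are not given, since the choice of the genes fixed them.

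The spread within WT was not itself a criterion for the members, but their choice used the WT level, on which this spread can depend. SLC22A17 counted as expressed in WT mainly through replicate 1, so its spread is not independent of its choice. The SD of log2(normalised count + 1) over the 3 WT libraries was 1.63 for SLC22A17, 1.19 for CDHR1, 0.95 for CNTN3 and 0.92 for SCG5, against a median of 0.40 for the 4319 genes with a WT mean between 10 and 300. Among those genes, 6.58% had a larger WT spread than SLC22A17 and 16.3% a larger one than SCG5. APBA1 and PLBD1 were steady, with SDs of 0.069 and 0.153, and 97.1% and 87.1% of the same genes were more variable. Those genes were not matched to each member by level within the range of 10 to 300, so the percentages also reflect level. WT replicate 3 was the lowest WT library for 4 members, CNTN3, CDHR1, SCG5 and SLC22A17, and WT replicate 2 for the other two. The 4 genes closest to 0 in POLDIP2 KO were also the 4 members that varied most between WT cultures. They had lower WT means (24.6 to 114) than APBA1 and PLBD1 (204 and 218). Spread and level cannot be told apart among the members. Fewer cells expressing a gene and less RNA per cell cannot be told apart in bulk libraries.

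A loss of this size was uncommon but not limited to the members. Of 13304 autosomal genes tested, 30 (0.225%) had a WT mean of at least 10 and a POLDIP2 KO mean of at most 10% of it, and 4 of these were CNTN3, CDHR1, SCG5 and SLC22A17. Libraries of the lines did not overlap for 18 of the 30. In the opposite direction, 32 autosomal genes (0.241%) had a POLDIP2 KO mean of at least 10 and a WT mean of at most 10% of it, 15 of them without overlap. Every POLDIP2 KO library was at 3 reads or fewer for 16 of the 30 (0.12% of autosomal genes tested), and every WT library for 12 of the 32 (0.0902%). These counts include genes with overlapping libraries. RGL2 and RPS9 had a POLDIP2 KO mean of 0 but were also at 0 in at least 1 WT library, and BDP1 was the reverse case.

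Among the 5 genes whose profile over the 6 libraries was most like the mean profile of the members were SV2A (Pearson r = 0.998), HS6ST2 (0.994), RNF144A (0.991) and TXLNGY (0.987). These points share 2 cell lines and the same libraries, and the values are a description. HS6ST2, a heparan sulphate sulfotransferase gene on chromosome X, reached 33.1, 30.1 and 15.7 normalised counts in WT and was at 0 in each POLDIP2 KO library. SV2A, a synaptic vesicle glycoprotein, had a far smaller step, from 1167, 1142 and 959 in WT to 651, 620 and 609 in POLDIP2 KO. RNF144A, a ubiquitin ligase, had 74.6, 40.1 and 28.2 in WT against 6.15, 4.88 and 3.97 in POLDIP2 KO. TXLNGY, on chromosome Y, had 27.4, 31.1 and 18.8 in WT and was at 0 in each POLDIP2 KO library.

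To see whether neighbouring genes were also lower, the 5 nearest protein-coding genes on either side of each member were examined, 60 in all, of which 37 were tested. None passed limma (0 called, where 0.164% of all genes were called), edgeR called 0 and DESeq2 called NRG3 alone. At an unadjusted p value under 0.05, 5 of the 37 passed, beside 6.44% of all genes, and the libraries did not overlap for 2 higher and 4 lower genes, against 10.9% of all genes. The median log2 difference of the 37 was -0.08.

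The 10 neighbours of CDHR1 gave 5 tested genes, all with a negative log2 difference, and a median of -0.53. CDHR1 lies next to RGR, LRIT1 and LRIT2, eye genes that were at 0 in every library of both lines. CCSER2, 108965 bases beyond CDHR1, had 3258, 3949 and 3284 normalised counts in WT against 2784, 2295 and 2185 in POLDIP2 KO (log2 difference -0.53, SE 0.14, limma adjusted p = 0.325). NRG3, a neuregulin growth factor gene 1207358 bases away, had 406, 308 and 191 in WT against 164, 123 and 117 in POLDIP2 KO (log2 difference -1.11, SE 0.31, limma adjusted p = 0.399, DESeq2 adjusted p = 0.0476). The libraries of the lines did not overlap for either gene. NRG3 lies on the other side of CDHR1 from CCSER2. GHITM, a mitochondrial membrane protein gene, lies between NRG3 and CDHR1, 39696 bases from CDHR1. Its log2 difference was -0.08 (SE 0.13) with overlapping libraries.

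Beside CNTN3, the nearest tested gene PDZRN3, a ubiquitin ligase gene 637627 bases away, had 258, 154 and 85.6 normalised counts in WT against 96.0, 37.4 and 33.8 in POLDIP2 KO. Its log2 difference of -1.58 (SE 0.54, limma adjusted p = 0.588) came with overlapping libraries, and ZNF717 on the other side had 0.0015. Beside APBA1, ENTREP1 had 31.2, 24.1 and 17.8 in WT against 9.84, 8.95 and 2.98 in POLDIP2 KO, without overlap (log2 difference -1.71, SE 0.58, limma adjusted p = 0.583). PTAR1, on the other side of APBA1, had a log2 difference of -0.13 (SE 0.16).

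SCG5, SLC22A17 and PLBD1 had neighbours with smaller differences. ARHGAP11A, a GTPase-activating protein gene that ends 1735 bases before SCG5, had 4367, 3411 and 5253 normalised counts in WT against 3402, 4583 and 4324 in POLDIP2 KO, a log2 difference of -0.07 (95% CI -0.52 to 0.37). FMN1, on the far side of SCG5, had a log2 difference of -0.45 (SE 0.37). The largest log2 difference beside SLC22A17 was -0.34 (SE 0.37) for BCL2L2-PABPN1, which shares its sequence with BCL2L2 and PABPN1 and is uncertain for that reason. On the higher-coordinate side of SLC22A17 none of the 5 genes passed the expression filter, and EFS, 3491 bases away, had at most 1 read in any library. ATF7IP, whose end lies 730 bases from PLBD1, had a log2 difference of -0.17 (95% CI -0.78 to 0.43). H4C16 on the other side had -0.30 (SE 0.50), and the largest log2 difference was 0.42 (SE 0.37) for C12orf60.

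Family members and functional partners of the 6 genes were then examined as 6 lists with 83 genes in all, of which 57 passed the expression filter. None was called by limma (0 of 57, against 0.164% of all genes) or edgeR, and DESeq2 called CPE alone. At an unadjusted p value under 0.05, 5 of the 57 passed, beside 6.44% of all genes. The libraries did not overlap for 5 higher and 2 lower genes of the 57, beside 10.9% of all genes in either direction. The median log2 difference was 0.09.

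Among 15 genes around CNTN3, 7 were tested. The other contactins were weakly expressed or variable. CNTN1 had 1047, 343 and 307 normalised counts in WT against 802, 309 and 56.6 in POLDIP2 KO, and CNTN4 had at most 29 reads in any library. NRCAM, a neuronal adhesion molecule of the L1 family, had 33.1, 18.1 and 33.4 in WT against 75.04, 39.1 and 65.5 in POLDIP2 KO (log2 difference 1.06, SE 0.41, limma adjusted p = 0.705). Neurofascin, NFASC, the most abundant of the list, had a log2 difference of 0.01 (SE 0.26). CNTN1 and CNTN4, and PROM1 among the partners of CDHR1, were picked out after their values were seen.

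Among 11 genes listed with CDHR1, PROM1 and otherwise cadherin genes, 5 were tested. CDHR4 had 8.50, 9.03 and 10.4 normalised counts in WT against 20.9, 26.0 and 13.9 in POLDIP2 KO, without overlap (log2 difference 1.01, SE 0.46, limma adjusted p = 0.833). PROM1, a disc membrane protein that binds the photoreceptor cadherin, had at most 4 reads in any library. CDH2, the N-cadherin gene and the most abundant of the list, had a log2 difference of 0.13 (95% CI -0.57 to 0.83).

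Of 15 genes of granins, proprotein convertases and other prohormone-processing proteins listed with SCG5, 7 were tested. SCG2, a granin of secretory granules, had 18.9, 25.1 and 21.9 normalised counts in WT against 40.6, 63.5 and 98.3 in POLDIP2 KO (log2 difference 1.495, SE 0.40, limma adjusted p = 0.386). CPE, the carboxypeptidase that trims prohormones after convertase cleavage, had 962, 1424 and 919 in WT against 1883, 1930 and 1787 in POLDIP2 KO. Its log2 difference was 0.79 (SE 0.18, limma adjusted p = 0.255, DESeq2 adjusted p = 0.0186). Both genes were thus higher in every POLDIP2 KO library, opposite to SCG5. PCSK2, the convertase that SCG5 serves, did not pass the expression filter. It had 0.945, 17.1 and 1.04 normalised counts in WT against 2.46, 2.44 and 1.99 in POLDIP2 KO. Its higher WT mean (6.35 against 2.30) thus came from WT replicate 2 alone. Every other library was at the floor, so the order among those libraries says little. FURIN, the convertase of the constitutive pathway, had a log2 difference of -0.01 (SE 0.11). PCSK2 and CPE were picked out after their values were seen.

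Of 13 genes listed with SLC22A17, 10 were tested. SLC22A15, another transporter of the SLC22 family, had 115, 55.2 and 26.1 normalised counts in WT against 35.7, 11.4 and 8.94 in POLDIP2 KO (log2 difference -1.76, SE 0.71, limma adjusted p = 0.745) with overlapping libraries. A close relative of SLC22A17, SLC22A23, had a log2 difference of 0.01 (SE 0.40). TFRC, the transferrin receptor, had 0.11 (95% CI -0.65 to 0.87). LCN2, the ligand of SLC22A17, was below the expression filter averaging 0.696 normalised counts in WT against 8.61 in POLDIP2 KO. SLC22A23 and LCN2 were picked out for their known relation to SLC22A17 after their values were seen.

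All 15 genes listed with APBA1 were tested, and none had an unadjusted p value under 0.05. The paralogue APBA2 had 160, 479 and 475 normalised counts in WT against 303, 408 and 386 in POLDIP2 KO, a log2 difference of 0.13 (95% CI -0.88 to 1.14). The paralogue APBA3 had 544, 469 and 441 in WT against 402, 396 and 344 in POLDIP2 KO, and CASK, the scaffold kinase of the APBA1 complex, had 1799, 2604 and 1833 against 1762, 1723 and 1656. Both were lower in every POLDIP2 KO library, with log2 differences of -0.35 (SE 0.15, limma adjusted p = 0.807) and -0.26 (SE 0.16, limma adjusted p = 0.981). APP, the amyloid precursor protein gene and the most abundant of the list, had a log2 difference of 0.09 (95% CI -0.24 to 0.43), and the largest in size was -0.35 (SE 0.34) for the kinesin gene KIF17. APBA2, APBA3 and CASK were picked out as the nearest partners after their values were seen.

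Of 14 lipid hydrolase genes listed with PLBD1, 13 were tested and all log2 differences lay between -0.14 and 0.29. The largest belonged to the paralogue PLBD2, with 5951, 5339 and 4724 normalised counts in WT against 7503, 5814 and 6226 in POLDIP2 KO (log2 difference 0.29, SE 0.14, limma adjusted p = 0.868).

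Because the members are best known from other cell types, markers of those cells were checked in both lines. Of 59 marker genes, 58 had a row and 24 were tested. Limma, edgeR and DESeq2 each called 0 of the 24, where limma called 0.164% of all genes. At an unadjusted limma p value under 0.05, 2 of the 24 passed, beside 6.44% of all genes. The libraries did not overlap for 0 higher and 4 lower genes of the 24, beside 5.45% and 5.43% of all genes. The 4 lower genes were LRAT, SERPINF1, PDE6B and CSF1R. RPE markers summed to 72201 to 82750 normalised counts per library in WT and 67742 to 89773 in POLDIP2 KO, with 11 of 16 tested, but most of this sum was the keratins KRT8 and KRT18, which other epithelia share. KRT8 had a log2 difference of 0.05 (SE 0.16), and LRAT, an enzyme of the visual cycle, had 106, 75.3 and 29.2 in WT against 22.1, 24.4 and 28.8 in POLDIP2 KO (log2 difference -1.27, SE 0.50, limma adjusted p = 0.735). Picked out after their values were seen, SERPINF1, the gene of a secreted RPE factor, was at 103, 168 and 108 in WT against 101, 74.1 and 49.6 in POLDIP2 KO (log2 difference -0.77, SE 0.34, limma adjusted p = 0.825), and BEST1, an RPE chloride channel gene, had a log2 difference of 0.78 (SE 0.82) with overlapping libraries.

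Neuronal and neuroendocrine markers summed to 1802 to 2571 in WT and 2134 to 2905 in POLDIP2 KO. Most of this was TUBB3, a tubulin gene with a log2 difference of 0.39 (SE 0.19, limma adjusted p = 0.856), and 6 of the 14 markers, NEFL, NEFM, GAP43, INSM1 and NEUROD1 among them, were at 0 in every library. Photoreceptor markers summed to 757 to 863 in WT and 691 to 716 in POLDIP2 KO, with ARR3, GNAT1 and GUCA1A at 0 everywhere. PDE6B, a phosphodiesterase subunit gene and the most abundant of them, had 323, 422 and 344 in WT against 267, 282 and 233 in POLDIP2 KO (log2 difference -0.47, SE 0.17, limma adjusted p = 0.678). ABCA4, a retinoid transporter gene, had 92.6, 20.1 and 6.26 in WT against 11.1, 7.33 and 10.9 in POLDIP2 KO and, like SLC22A17, was high in WT replicate 1 alone.

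Myeloid markers summed to 1767 to 2284 in WT and 1902 to 2193 in POLDIP2 KO and were almost entirely CD68, a lysosomal glycoprotein gene with a log2 difference of 0.01 (SE 0.13). MPO, AIF1, TYROBP, SPI1, S100A9 and ELANE were at 0 in every library. CSF1R had 48.2, 24.1 and 15.7 in WT against 4.92, 14.7 and 11.9 in POLDIP2 KO (log2 difference -1.37, SE 0.61, limma adjusted p = 0.823). At 0 in every library were 6 of the 14 neuronal, 4 of the 14 photoreceptor and 6 of the 14 myeloid markers that had a row, in both of the lines and so also in WT, where the members were expressed. By contrast, 3 neuronal, 6 photoreceptor and 4 myeloid markers passed the expression filter. Among these, SYT1 had 780, 721 and 377 normalised counts in WT, and ROM1 had 278, 244 and 264. The summed marker levels overlapped between the lines except for the photoreceptor list, whose part in the CDHR1 result was not tested.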

How the data were processed

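Stranded mRNA libraries of WT ARPE-19 and POLDIP2 KO cells (3 each) were sequenced, and the authors estimated transcript abundance with Salmon 1.8 (GRCh38), collapsed it per gene in tximport and applied DESeq2 1.34.0 size factors. The deposited signal is thus a normalised count per gene and library. The annotation release and the strand setting of the quantification are not given in the sources used here.

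Of 37902 rows, 34152 were named with GENCODE release 44 and 14, the second rows of SCG5 and APBA1 among them, with the names in the study's supplementary gene list, of which no values were used. Rows that share a symbol were summed, which left 37882 genes. Reads were recovered by dividing each library by its smallest value above 0, and 100% of values were whole within 0.001. In WT replicate 2 and POLDIP2 KO replicate 3 that smallest value is close to 1 (1.00336 and 0.992953). After division, their largest distances from a whole number were 8.51e-05 and 0.000221. Depth was 31532797 to 45795509 reads.

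Lines were compared with limma 3.58.1 (R 4.3.3) after adding 1 and taking log2, over the 14672 genes whose mean normalised count reached 10, using trended eBayes and Benjamini-Hochberg adjustment, with thresholds of 0.05 (adjusted p) and 1.5 (fold). Adding 1 understates changes of low genes. An exact permutation test of 3 against 3 libraries cannot go below 0.1. Pooled levels used exact (Clopper-Pearson) 95% intervals. Values centred within each line correlated between same-numbered libraries at 0.316, 0.137 and 0.129, all above 0.1, so the number was used as a block in an alternative. WT replicate 3 and POLDIP2 KO replicate 2 correlated at 0.149, so the numbers are not the closest match for each library. Other alternatives were pseudocounts, filters, quantile normalisation, separate rows, eBayes without trend, edgeR 4.0.16 and DESeq2 1.42.0 on the recovered reads, and leaving out each library.

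Members and lists were chosen with earlier results of these data known. Named by a set rule are the members, the most abundant and most changed tested gene of each list, the nearest tested and most changed neighbours, and the 5 genes most correlated with the members' mean profile. Genes outside this rule were chosen after their values were seen. Some genes that the rule or the lists hold are not reported here.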

Additional observations from a re-analysis of the deposited data

How the results depend on the processing

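The direction of the members' difference was fixed by their choice and is not a sign of stability. The median log2 difference of the members was -3.62, and it was -2.31 with 5 added, -4.51 with edgeR and -4.55 with DESeq2. With a mean of at least 50 it was -2.01 over the 3 members left. With rows kept apart, the larger row of SCG5 had -6.46 and that of APBA1 -2.57. Limma called 12 genes lower and 12 higher, against 6 lower with a mean of at least 50, 6 higher without trend, and 136 lower and 110 higher with DESeq2. With each library left out, 0 to 5 genes were lower and 0 to 8 higher. Leaving out WT replicate 2 or 3 or POLDIP2 KO replicate 2 or 3 left 0 called by limma (unadjusted p under 0.05: 857, 899, 864 and 688), and leaving out WT replicate 1 or POLDIP2 KO replicate 1 left 10 each. Partner and neighbour genes called were 0, with DESeq2 as the exception at 1 each, and marker genes called were 0 under every alternative run. With the replicate number as a block, 13 genes were lower and 17 higher, and 0 partner, neighbour or marker genes were called. The cause of these differences was not tested. Depth limits the size of the difference for members near the floor. P-values measure the spread between these cultures of 1 line each.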
